A study of Homo sapiens with 4 samples.

Results

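The difference between wild-type KIAA1324 and its N-glycosylation mutant 3NQ was read directly, without passing through the control cells, from 1 library of each in MKN28, a human gastric adenocarcinoma cell line. The ratio covered the 11542 of 23362 genes in the table with an expression value of at least 1 in WT or 3NQ, in fragments per kilobase and per unit of library size (FPKM). MKN28 cells carried retroviral tet-on constructs, which doxycycline switches on, and underwent G418 and puromycin selection. The KIAA1324 constructs coded for HA-tagged proteins. The 4 libraries of the series came from cells with luciferase (Luc), wild-type KIAA1324 (WT), the mutant 3NQ, in which the asparagines at residues 153, 404 and 672 were changed to glutamine, and the mutant ΔTM, which lacks the transmembrane domain. All 4 lines shared the vector system and the selection, and whether the cells of each line came from 1 clone, and the dose and time of doxycycline before the RNA was taken, are not given in the sources used here. Poly(A) RNA was sequenced, and each group was 1 library without a replicate. Thus, no difference described here could be set against the spread between replicates, no p-value was computed, and every ratio compares 2 libraries and not 2 conditions.

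KIAA1324 is a type I transmembrane protein found in the secretory pathway and at the cell surface, and it has been described as a tumor suppressor in gastric cancer. Asparagine-linked glycans are built on a lipid carrier at the endoplasmic reticulum (ER) membrane, are transferred to the sequence asparagine, any residue, then serine or threonine, and are read by ER chaperones while the protein folds. When unfolded protein gathers in the ER, the sensors IRE1, PERK and ATF6 raise the transcription of chaperone genes, the ATF4 branch and the machinery that exports or degrades proteins.

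The sequences around the altered asparagines are shown because they define the difference between the constructs. KIAA1324 (ENSG00000116299) spans chromosome 1 from 109656301 to 109749401 in GRCh37, on the plus strand. In its transcript of 22 exons and 1013 residues, 9 asparagine codons stood in the sequence that accepts an N-glycan, of which 3 were altered in 3NQ. The asparagine codon is in capitals in the reference sequence of each, and the first lies in exon 3, the second in exon 9 and the third in exon 15. The window of residue 153 runs past the end of exon 3 into the intron, and that of residue 404 past the end of exon 9.
Residue 153 (chr1:109707288-109707320): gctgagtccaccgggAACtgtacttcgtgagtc
Residue 404 (chr1:109730952-109730984): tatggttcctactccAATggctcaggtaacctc
Residue 672 (chr1:109737094-109737126): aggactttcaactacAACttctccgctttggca

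Both constructs were expressed at high levels. KIAA1324 reached an FPKM of 11185 in the WT library and 8197 in the 3NQ library, against 2.86 in Luc. It was listed at 0 in the fourth library, which is therefore called the library labelled ΔTM. The log2 ratio of WT to 3NQ was 0.45, below the 1.5-fold threshold used here, and rescaling the libraries or changing the pseudocount moved it between 0.42 and 0.50. KIAA1324 was the most abundant gene in WT and the second in 3NQ, where it took 1.98% and 1.40% of the summed FPKM. The table cannot separate the transcript of the construct from that of the gene itself, and the exons of the gene overlap those of another gene. The dose of the transgene was therefore not matched between the libraries, and its part in the other differences was not tested.

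The FPKM summed to 564545 in WT and 585104 in 3NQ, and to 560540 to 575125 in the other libraries, with 6624 to 6903 genes listed at 0. An FPKM carries no read count, so that the depth behind a value is unknown, and a listed 0 can be a failed estimate. The epithelial markers EPCAM, CDH1, KRT7, KRT8, KRT18 and KRT19 were all at an FPKM of at least 180 in every library. Of the leukocyte, fibroblast and endothelial markers in the table, CD68 (4.44 to 5.84) and COL1A1 (12.1 to 15.3) passed the filter, PTPRC, CD14, DCN, COL3A1 and CDH5 were at or under 0.153, and KDR and CD3E were listed at 0 in all 4 libraries. In such bulk RNA, fewer cells of a type and less RNA per cell cannot be told apart. At the filter, RAPGEFL1 was just inside with 1.00 in WT and 0.948 in 3NQ, and LMTK3 was just outside with 0.996 and 0.930. Where 4 FPKM values of a gene follow each other, they are in the order Luc, WT, 3NQ and the library labelled ΔTM.

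All ratios are on the log2 scale of FPKM + 1, which understates the change of low genes, and a gene is called higher or lower where it differs by 1.5-fold or more. Between WT and 3NQ, 338 genes were higher in WT, or 2.93% of those counted, and 179 were lower, or 1.55%. Higher genes made up 65.4% of the 517 calls. The median ratio over all genes was 0.026, with quartiles of −0.12 and 0.18. As a background, the pair that shares no library with this ratio, Luc against the library labelled ΔTM, gave 156 higher (1.35%) and 158 lower genes (1.37%) over the same 11542 genes. At a 2-fold threshold, 58 genes were higher and 49 lower in WT, against 41 and 57 in the background pair. The excess of called genes was therefore on the side higher in WT, and it was seen at 1.5-fold more than at 2-fold.

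**Figure D1:**
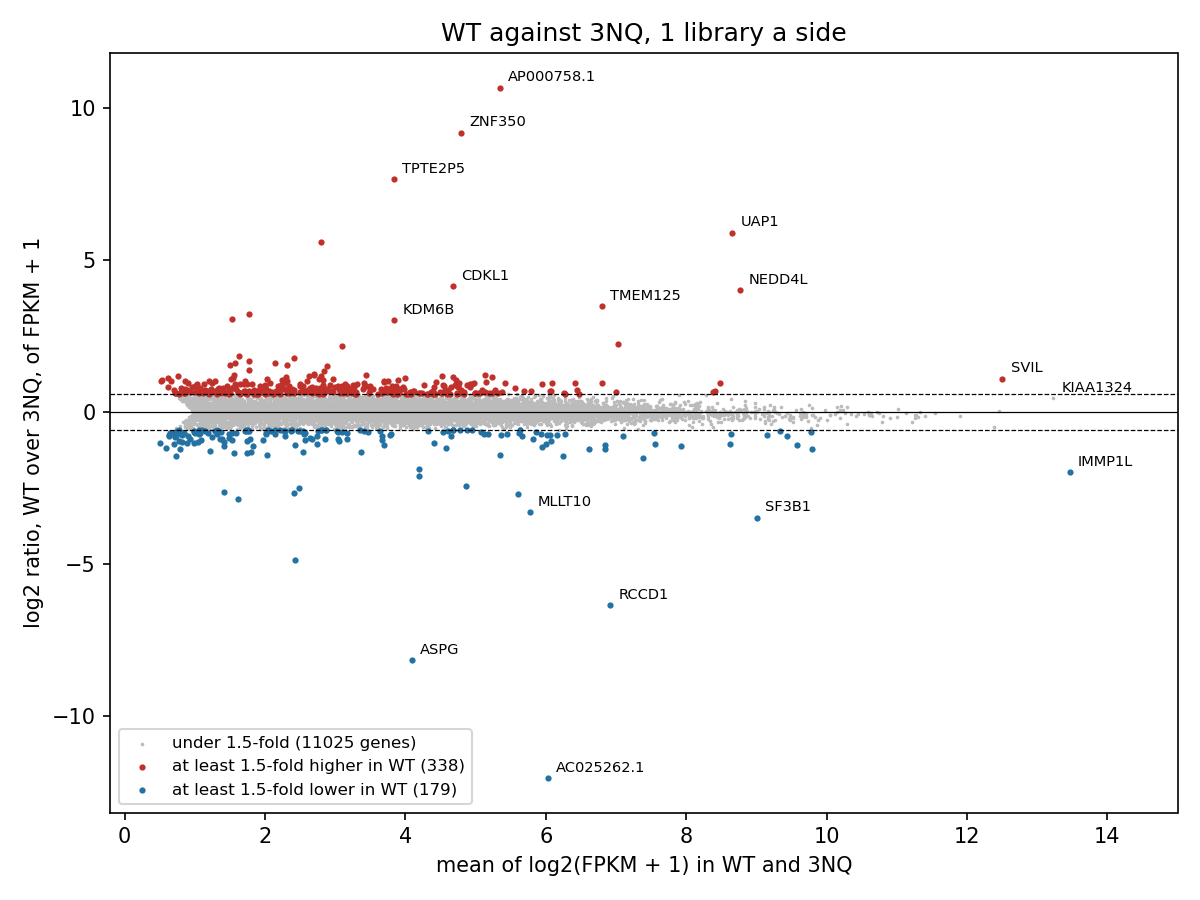
The log2 ratio of WT to 3NQ of FPKM + 1 (vertical axis) is plotted against the mean of log2(FPKM + 1) in both libraries (horizontal axis), with 1 point for each of 11542 genes, red for the 338 higher and blue for the 179 lower in WT, and dashed lines at 1.5-fold. Named points include genes listed at 0 in 1 library, whose height depends on the 1 added to each FPKM.

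Luc and the library labelled ΔTM did not enter the ratio and show which side of it departed. WT lay at least 1.5-fold above each of the other 3 libraries in 112 genes, or 0.970% of all, and as far below each in 39 (0.338%). By contrast, 3NQ lay above each other library in 31 genes (0.269%) and below each in 25 (0.217%). Thus, of the 517 called genes, WT stood apart in 151 and 3NQ in 56, and without the library labelled ΔTM in 202 and 138. In 118 of the 517 called genes, the level of 3NQ was between those of Luc and WT, which held for 40.1% of all genes. The called genes were chosen on WT and 3NQ, so that this is not a direct comparison. Another pattern paired the libraries. Of the 338 genes higher in WT, 183 were higher in both Luc and WT than in both of the others, and of the 179 genes lower in WT, 82 were lower in both. Over all genes, Luc and WT were both above 3NQ and the library labelled ΔTM in 22.7% and both below them in 10%. These shares cannot be set directly against the called genes, which were chosen on WT and 3NQ, a part of the pattern. Among all genes with a ratio above 0 the share was already 41.3%, and among those below 0 it was 22.3%. Genes whose higher FPKM was under 5 made up 36.8% of the called genes, against 19.9% of all, and exons overlapped those of another gene in 35.6% of the called genes, against 34.5% of all.

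The 12 highest and 12 lowest ratios, among genes above 0 in both libraries and with an FPKM of at least 5 in either, were often but not always changes of a single library. Of the 12 highest, WT alone was set apart in 7, by 5-fold or more from the median of the other libraries, which were within 2-fold of each other. Both folds were taken on FPKM + 1. ZNF350, a zinc finger repressor that partners BRCA1 (chromosome 19, 52467596 to 52490109), had an FPKM of 0, 674, 0.143 and 0.153. UAP1, which makes the UDP-N-acetylglucosamine that begins every N-glycan, had 30.0, 3126, 51.0 and 36.4, with a log2 ratio of 5.91, and lies on chromosome 1 from 162531321 to 162569627. NEDD4L, a ubiquitin ligase that controls sodium channels, had 199, 1753, 108 and 118 (4.01). In all 3 genes the WT library stood far above the others, which for NEDD4L ranged from 108 to 199. CDKL1, a kinase related to cyclin-dependent kinases, had 4.21, 107, 5.08 and 7.10 (4.15), and KDM6B, a demethylase of histone H3 lysine 27, had 4.12, 40.01, 4.002 and 3.501 (3.04). TMEM125, a membrane protein, had 24.9, 374, 32.3 and 25.2 (3.49). The axonemal dynein chain DNAI1 had 9.43 in WT and at most 0.198 elsewhere. The other 5 were more graded. PRR11, a gene of the cell cycle, was at 72.4, 284, 58.7 and 66.2 (2.25), while the protease inhibitor CST1 was at 9.28, 17.1, 3.05 and 3.62 (2.16), with Luc nearer to WT. The G protein regulator RGS12 (1.76), the antiviral deaminase APOBEC3G (1.66) and the laminin chain LAMA2 (1.61) completed them.

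At the other end, 3NQ alone was set apart in 6 of the 12 lowest. RCCD1, a partner of the histone demethylase KDM8 (chromosome 15, 91498100 to 91506349), had 19.0, 12.4, 1095 and 17.2, with a log2 ratio of −6.35. MLLT10, a cofactor of the histone methyltransferase DOT1L, had 17.2, 16.5, 170 and 17.3 (−3.29), and GRAMD4 had 21.8, 18.0, 123 and 14.5 (−2.71). Here the WT library sat within the range of Luc and the library labelled ΔTM or near it, and 3NQ was high. INTS10, a subunit of the Integrator complex, had 11.1, 11.4, 67.0 and 11.8 (−2.45), and the zinc finger repressor ZBTB20 (−2.88) and AC007319.1 (−2.63) were above 1 in 3NQ only. A different pattern held for SF3B1, a core subunit of the U2 spliceosome on chromosome 2 from 198256698 to 198299815, with 157, 153, 1725 and 1711 (−3.48). SF3B1 thus split the libraries into pairs, and its ratio of Luc to the library labelled ΔTM was −3.44. IMMP1L, a mitochondrial inner membrane peptidase subunit whose exons overlap another gene, was the most abundant gene of 3NQ, with 9820, 5656, 22515 and 18.2 (−1.99). It took 3.85% of the summed FPKM in 3NQ and 1.00% in WT. RNF207 (2.75, 1.12, 12.3 and 45.5), CMTM1 (43.5, 1.36, 12.3 and 25.05), HIVEP2 (31.4, 7.78, 37.02 and 5.93) and METAP1D (20.7, 8.51, 34.1 and 15.7) differed among the libraries without 1 library alone apart. Among the 12 highest, 2 genes had exons that overlap another gene, and among the 12 lowest, 4.

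**Figure D2:**
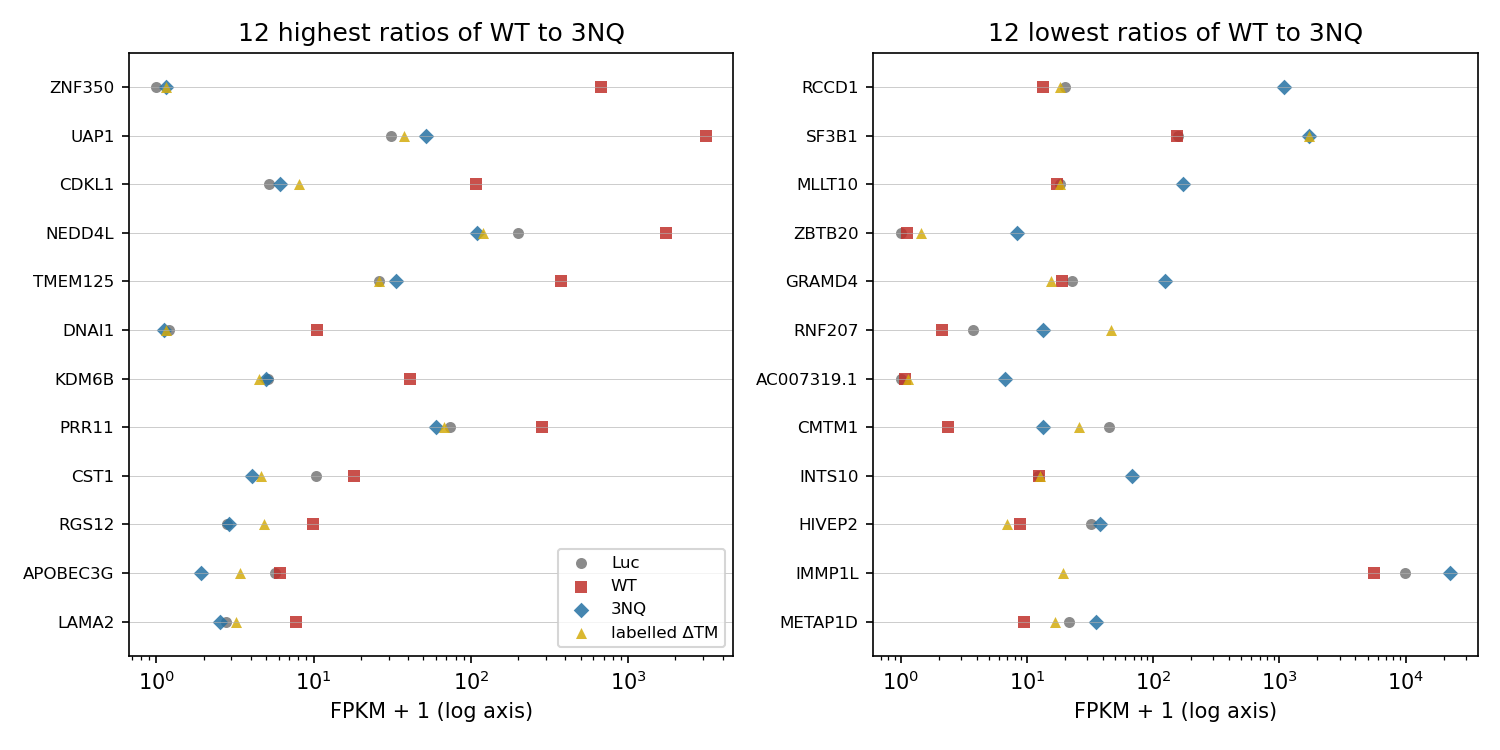
FPKM + 1 in each of the 4 libraries (log axis, 1 symbol a library) is shown for the 12 genes with the highest and the 12 with the lowest ratio of WT to 3NQ. WT alone is far to the right for genes such as ZNF350 (674) and UAP1 (3126), 3NQ alone for RCCD1 (1095), and SF3B1 shows Luc and WT together against the other pair.

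Genes listed at 0 in WT or 3NQ have no fold. AP000758.1 (chromosome 11, 120329880 to 120330047) was at 1318, 1649, 0 and 1654, so that 3NQ was the only library where it was listed at 0. AC025262.1 (chromosome 12, 65090189 to 65090329) was at 3267, 0, 4270 and 2872, and WT was the only one. TPTE2P5, a pseudogene, was at 181, 202, 0 and 0.213. PIGY, a subunit of the enzyme that starts the GPI anchor, was at 4.33 in Luc and 47.1 in WT and listed at 0 in the remaining libraries. ASPG, an asparaginase, was listed at 0 in WT, at 290 in 3NQ and at no more than 0.0204 elsewhere. FAM25C was at 25.8, 0, 28.3 and 80.7. RP3-323P13.2 (7.32) and HIST1H4B (1.05) were low in WT and listed at 0 in 3NQ, and RP1-228P16.1 (1.75) and AC073343.13 (1.29) were low in 3NQ and listed at 0 in WT. Most of these entries are short transcripts, pseudogenes or members of families with near-identical copies, for which the assignment of reads is uncertain. Among the 10 most abundant genes of either library, SVIL, which links actin to the membrane, was the only other called gene besides UAP1, IMMP1L and AC025262.1, with 5895, 8496, 3973 and 5501 (1.10).

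ER chaperones and folding enzymes were the list with the lowest median. Of its 33 genes, 16 were lower in WT than in 3NQ, or 48.5% against 1.55% of all genes, none was higher, and 28 had a ratio below 0. The list median was −0.49, against 0.026 over all genes. The FPKM of the 33 genes summed to 4834 in WT and 7880 in 3NQ, with Luc at 4471 and the library labelled ΔTM at 8794. The WT library was therefore at a level like that of Luc, and the high side of the ratio was 3NQ together with the library labelled ΔTM. In 23 of the 33 genes both Luc and WT were below both of these, against 10% of all genes, and the list median of Luc against the library labelled ΔTM was −0.79, with 18 genes lower. The level of 3NQ lay between those of Luc and WT in 5 of the 33.

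By role, the ER members of the HSP70 system came first. HSPA5, the ER HSP70 also known as GRP78 (chromosome 9, 127997132 to 128003609), had 318, 521, 1114 and 1028, with a log2 ratio of −1.10. Its nucleotide exchange factors HYOU1 (138, 165, 358 and 393, −1.11) and SIL1 (30.8, 37.3, 66.0 and 55.9, −0.81) and its J-domain partners DNAJC3 (25.9, 40.6, 76.0 and 66.8, −0.89) and DNAJB11 (90.6, 104, 179 and 201, −0.78) were lower in WT as well. For all 5 genes, Luc and WT were below the other pair without overlap. Among them HSPA5 and DNAJC3 were also higher in WT than in Luc, whereas HYOU1 and DNAJB11 were closer. HSP90B1, the ER HSP90, had 315, 275, 570 and 737 (−1.05), and CRELD2, a folding factor induced by ER stress, had 14.8, 14.8, 35.4 and 51.5 (−1.20), the lowest ratio of the list. SDF2L1 (36.1, 43.6, 92.0 and 127, −1.06) and the secreted factor MANF (18.1, 27.2, 45.7 and 61.5, −0.73) followed the same pattern.

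The lectin chaperones, which hold proteins through their N-glycans, were split at the threshold. CALR had 757, 693, 1107 and 1830 (−0.68) and was lower, while CANX had 249, 280, 392 and 431 (−0.49) and did not reach 1.5-fold. UGGT1, the enzyme that tags unfolded glycoproteins for them, was at −0.28, and its relative UGGT2 at −0.18. Of the disulfide isomerases, PDIA4 (140, 131, 271 and 332, −1.05), PDIA3 (447, 436, 746 and 679, −0.77), PDIA6 (323, 309, 512 and 607, −0.73) and ERP44 (22.1, 23.9, 37.04 and 42.0, −0.61) were lower in WT, whereas P4HB (466, 519, 676 and 586, −0.38) and PDIA5 (−0.05) were not called. The oxidases that recharge the isomerases differed. ERO1LB had 1.91, 2.69, 6.90 and 5.92 (−1.10), and ERO1L had 66.0, 80.0, 69.1 and 80.4 (0.21). The proline isomerase PPIB was lower (480, 518, 809 and 838, −0.64). SELM (0.35), DNAJC1 (0.08), FKBP14 (0.06) and SDF2 (0.02) were the remaining genes of the list above 0. Without the genes whose exons overlap another gene, 10 of 23 were lower and the median was −0.38, and with a 2-fold threshold 7 of the 33 were lower.

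**Figure D3:**
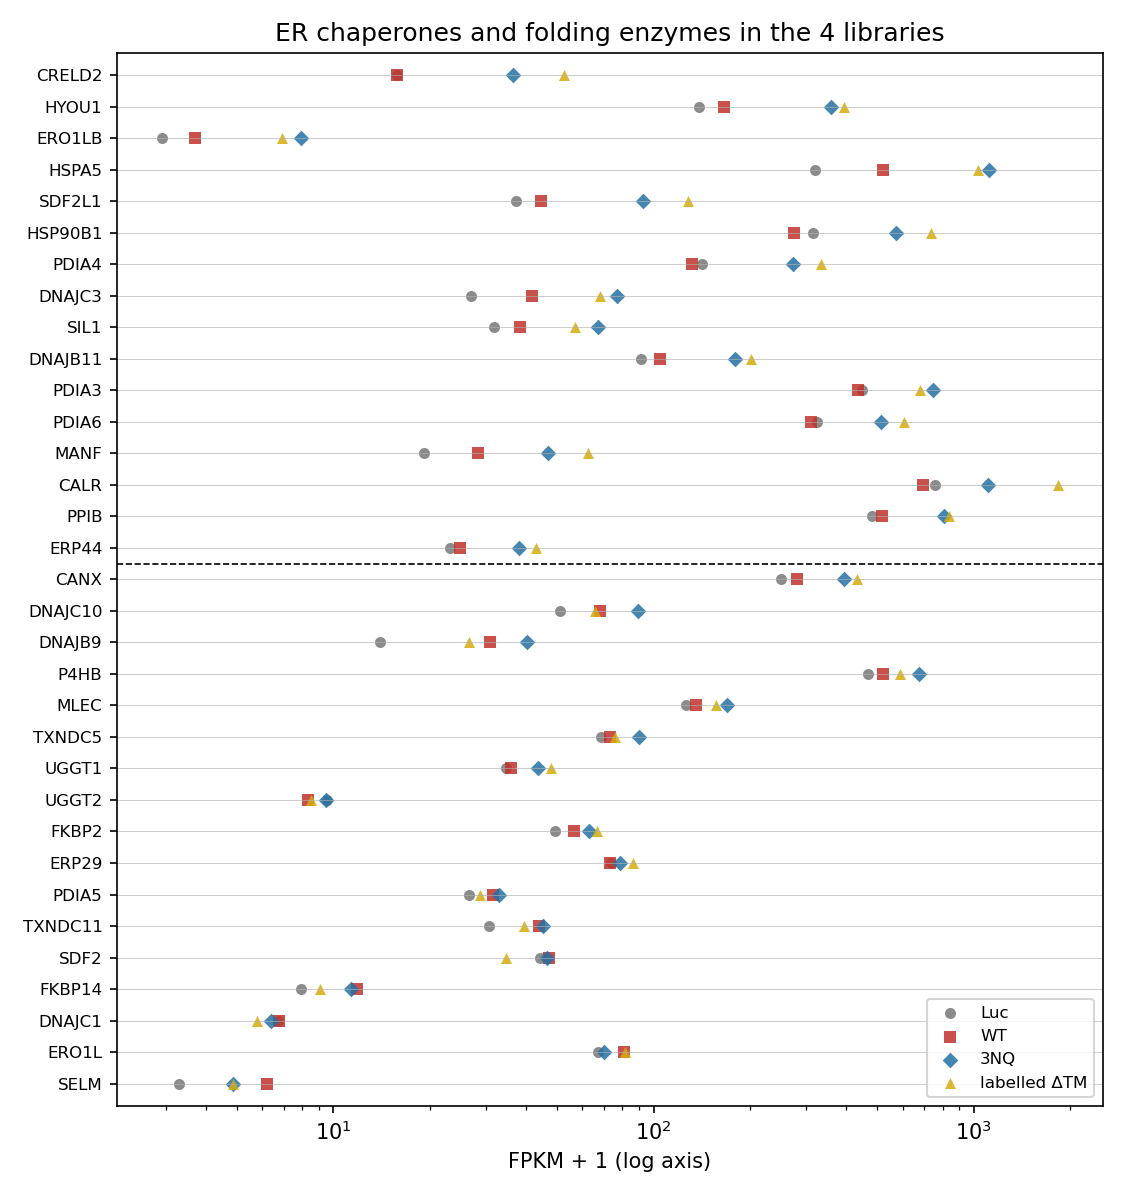
FPKM + 1 (log axis) of the 33 ER chaperones and folding enzymes is shown in each of the 4 libraries, sorted by the ratio of WT to 3NQ from the lowest at the top, with 1 symbol a library. Above the dashed line are the 16 genes at least 1.5-fold lower in WT, in which Luc and WT sit to the left of 3NQ and the library labelled ΔTM.

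Promoters were read from RefSeq (GRCh38.p14), as 250 bases before and 50 after the start of each gene, for 8481 of the 11542 genes and 27 of the 33 chaperone genes. The ER stress element, CCAAT and CCACG separated by 9 bases on either strand, was present in 13 of the 8481 promoters (0.153%). It was found in 4 of the 14 promoters of chaperone genes lower in WT and in 1 of the 13 others, CANX. The 250 bases before the start of the 4 genes are shown with the element in capitals, since they are the part of the list in which this sequence and a lower level in WT went together. HSP90B1 held 2 matches, and the element of CALR, CRELD2 and the second of HSP90B1 is on the reverse strand and so begins with CGTGG.
CRELD2 (chr22:49918384-49918633, plus strand): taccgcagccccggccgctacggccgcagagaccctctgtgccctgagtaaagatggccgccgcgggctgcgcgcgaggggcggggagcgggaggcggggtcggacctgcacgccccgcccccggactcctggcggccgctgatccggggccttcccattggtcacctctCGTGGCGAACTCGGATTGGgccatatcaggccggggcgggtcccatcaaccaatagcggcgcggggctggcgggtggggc
HSPA5 (chr9:125241344-125241593, minus strand): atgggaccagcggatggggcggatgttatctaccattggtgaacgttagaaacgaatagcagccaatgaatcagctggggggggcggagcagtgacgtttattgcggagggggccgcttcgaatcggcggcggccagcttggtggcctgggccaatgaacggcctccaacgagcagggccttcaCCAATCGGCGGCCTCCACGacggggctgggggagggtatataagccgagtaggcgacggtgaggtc
HSP90B1 (chr12:103930160-103930409, plus strand): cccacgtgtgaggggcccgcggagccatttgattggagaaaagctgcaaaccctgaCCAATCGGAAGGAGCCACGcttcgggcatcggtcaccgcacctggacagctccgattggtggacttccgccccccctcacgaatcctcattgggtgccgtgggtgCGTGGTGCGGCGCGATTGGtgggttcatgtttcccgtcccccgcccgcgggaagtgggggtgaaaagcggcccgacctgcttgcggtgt
CALR (chr19:12938359-12938608, plus strand): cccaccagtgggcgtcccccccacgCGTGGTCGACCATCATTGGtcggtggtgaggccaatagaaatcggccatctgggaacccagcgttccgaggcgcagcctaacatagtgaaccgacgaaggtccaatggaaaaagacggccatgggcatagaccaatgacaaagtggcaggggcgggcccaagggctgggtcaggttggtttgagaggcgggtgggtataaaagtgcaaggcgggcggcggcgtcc
The CCAAT box bound by NF-Y, which is part of the element, was found on either strand in 13 of the 14 promoters of lower genes and in 7 of the 13 others, against 37.1% of all promoters. The UPR element TGACGTGG was present in 1 of the 14 and 2 of the 13, against 0.979% of all. A match describes the letters of the promoter and not the binding of a factor, and HYOU1, SDF2L1 and other genes with ratios as low had no exact match in this window.

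For the ER stress sensors and the ATF4 branch, the median of 27 genes was 0.026, with 3 genes higher (11.1%, against 2.93% of all genes) and none lower in WT. The higher genes were DDIT4, an inhibitor of mTORC1 (17.6, 19.8, 10.8 and 9.92, 0.81), the stress factor NUPR1 (6.70, 7.46, 4.26 and 5.31, 0.69) and ERN1, which encodes IRE1 (2.46, 6.68, 3.90 and 4.27, 0.65). In ERN1 and CHAC1, a glutathione-degrading target of ATF4 (11.8, 23.1, 15.2 and 9.26, 0.57), WT was the highest of the 4 libraries. For ER-associated degradation, the median of 24 genes was −0.08, with 17 below 0 and none called, and Luc and WT were both below the other pair in 8 of the 24, against 10% of all genes.

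Genes that assemble and transfer the N-glycan had a median of −0.17 over 31 genes, 1 of which was lower in WT, or 3.23% against 1.55% of all genes. That gene was ALG5, which makes the glucose donor of the lipid-linked glycan (19.2, 21.2, 32.7 and 31.2, −0.60), and its call was lost with equal sums of FPKM. MAGT1 (64.9, 58.7, 88.2 and 89.6, −0.58) and DDOST (143, 130, 192 and 195, −0.55), subunits of the transferase complex, were just short of the threshold, and in both, as in ALG5, Luc and WT were below the other pair. In 13 of the 31, Luc and WT were both below the other pair, again against 10% of all genes. TUSC3, another subunit of that complex, had the highest ratio (0.54). Of the 26 genes that trim and extend N-glycans in the ER and Golgi, none was called and the median was 0.070. FUT8, the enzyme of core fucosylation, had 27.6, 19.3, 17.5 and 21.5 (0.13), and the mannosidase MAN1A1 had the highest ratio (0.57).

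Of 39 genes of transport from the ER to the Golgi, 3 were higher in WT, or 7.69% against 2.93% of all genes, and the other 36 were not called. Their median was 0.12, with 30 above 0, against 55.0% of all genes, and WT was the highest of the 4 libraries in 26, against 34.3% of all genes. KDELR3, a receptor that returns chaperones to the ER, had 11.4, 33.6, 14.2 and 13.2 (1.19). The COPII coat subunits SEC23A (41.8, 61.2, 34.7 and 34.2, 0.80) and SEC24A (21.8, 34.7, 21.8 and 19.3, 0.64) were also higher. For all 3, the other libraries lay close together and WT alone was high, unlike the chaperones. COPB2 (246, 379, 256 and 295, 0.56) and ARF4 (153, 289, 195 and 165, 0.56) did not reach 1.5-fold but had WT as the highest.

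Autophagy genes, which act where membranes are delivered to the lysosome, had a median of 0.22, with 31 of 33 above 0 and 4 higher in WT, or 12.1%. Over all genes, 55.0% were above 0 and 2.93% higher. SQSTM1, the cargo receptor p62, had 175, 495, 257 and 200 (0.94), the initiating kinase ULK1 had 27.4, 39.4, 21.6 and 22.8 (0.84), WIPI1 had 5.26, 16.6, 10.3 and 9.43 (0.64) and ATG10 had 4.78, 10.1, 6.27 and 6.25 (0.61). WT was the highest library in all 4 and in 25 of the 33 genes, against 34.3% of all genes, and the call of ATG10 was lost on rescaling by the median of ratios. Optineurin, OPTN, another cargo receptor, was just under the threshold (25.5, 46.3, 30.6 and 24.4, 0.58). Lysosomal genes had a median of 0.16, with 30 of 37 above 0 and none called, between −0.09 for TFEB and 0.40 for the proton pump subunit ATP6V0D1. For the mannose 6-phosphate receptors and sorting genes, to which the ectodomain of KIAA1324 is related in sequence, the median of 18 genes was 0.12 and none was called. The receptor M6PR itself was at 94.0, 84.2, 97.0 and 92.9 (−0.20).

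Cell cycle genes showed small ratios in 1 direction. Of 46 DNA replication genes, 44 were below 0, against 45.0% of all genes, with a median of −0.23, although only CDC6, which loads the MCM helicase, was called lower (58.7, 46.8, 77.4 and 63.3, −0.71). The share called lower was 2.17%, against 1.55% of all genes. In CDC6, 3NQ was the highest library, but in 38 of the 46 genes 3NQ lay between Luc and WT, against 40.1% of all genes. WT was the lowest of the 4 libraries in 42 of the 46, against 26.4% of all genes. POLE2, a subunit of DNA polymerase epsilon, had 13.97, 7.90, 11.1 and 12.8 (−0.44), and the helicase DNA2 had 17.6, 10.6, 14.4 and 15.8 (−0.41). In both genes the levels went down from Luc through the library labelled ΔTM and 3NQ to WT. The 11 genes of deoxynucleotide synthesis had a median of −0.26, with 10 below 0 and none called. Among them were RRM2, the regulated subunit of ribonucleotide reductase (134, 87.6, 116 and 131, −0.40), and TYMS, thymidylate synthase (54.7, 36.9, 48.7 and 54.6, −0.39).

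Mitotic genes had a median of −0.27 over 40 genes, 39 of them below 0 and none called. WT was the lowest library in 39, and 3NQ lay between Luc and WT in 39. Their summed FPKM was 3294, 2221, 2704 and 2946, and for DNA replication it was 2218, 1688, 1958 and 2153. NUF2, a kinetochore subunit, had 28.2, 16.8, 24.8 and 25.8 (−0.53), the contractile ring protein ANLN had 193, 115, 165 and 179 (−0.52), and CDK1, the kinase that drives entry into mitosis, had 138, 86.1, 112 and 125 (−0.38). CENPE, a kinetochore motor, was the exception, with 13.2, 10.7, 8.44 and 15.8 (0.32). In the background pair, the medians of the replication and mitosis lists were 0.056 and 0.17, against 0.060 over all genes. Thus, these lists held many genes with a like small ratio, and the 1.5-fold count does not describe them. The medians stayed between −0.26 and −0.18 for DNA replication and between −0.30 and −0.22 for mitosis in the 10 other settings tried. The E2F motif TTTCCCGC, on either strand, was present in 10 of the 39 promoters of DNA replication genes found (25.6%), against 2.76% of all, and in 1 of 33 for mitosis. The CCAAT box was present in 26 of the 33 (78.8%) and in 24 of the 39 (61.5%).

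Among the regulators of the cycle, E2F1 had 34.7, 19.1, 25.5 and 33.4 (−0.40) and E2F2 had 9.77, 5.54, 6.36 and 7.20 (−0.17). SKP2, which directs the degradation of CDK inhibitors, had 38.1, 22.3, 30.7 and 33.7 (−0.44). All 3 were lowest in WT and highest in Luc, with 3NQ between them. CDKN1A, the inhibitor p21, had 48.8, 83.6, 56.4 and 46.6 (0.56), and GADD45A, induced by DNA damage and stress, had 23.4, 36.8, 28.1 and 29.1 (0.38). CDKN1C, the inhibitor p57, had 0.768, 1.22, 0.726 and 0.826 (0.36), close to the filter. None of the 3 reached 1.5-fold, while CDKN1A did at 0.61 when each library was rescaled to the same sum of FPKM, and CDKN1C at 0.67 with a pseudocount of 0.1. Over the 33 genes of arrest and p53 targets the median was 0.22, with 26 above 0, and MDM2, the ubiquitin ligase of p53, was the only one called (65.5, 84.6, 51.8 and 55.3, 0.70). The share higher in WT was thus 3.03%, near the 2.93% of all genes. The p53 targets went both ways, since BBC3, also called PUMA, was at 0.54 and DDB2, a DNA repair factor, at −0.54 with WT at 6.31 and the other libraries at 9.61 to 10.7.

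**Figure D4:**
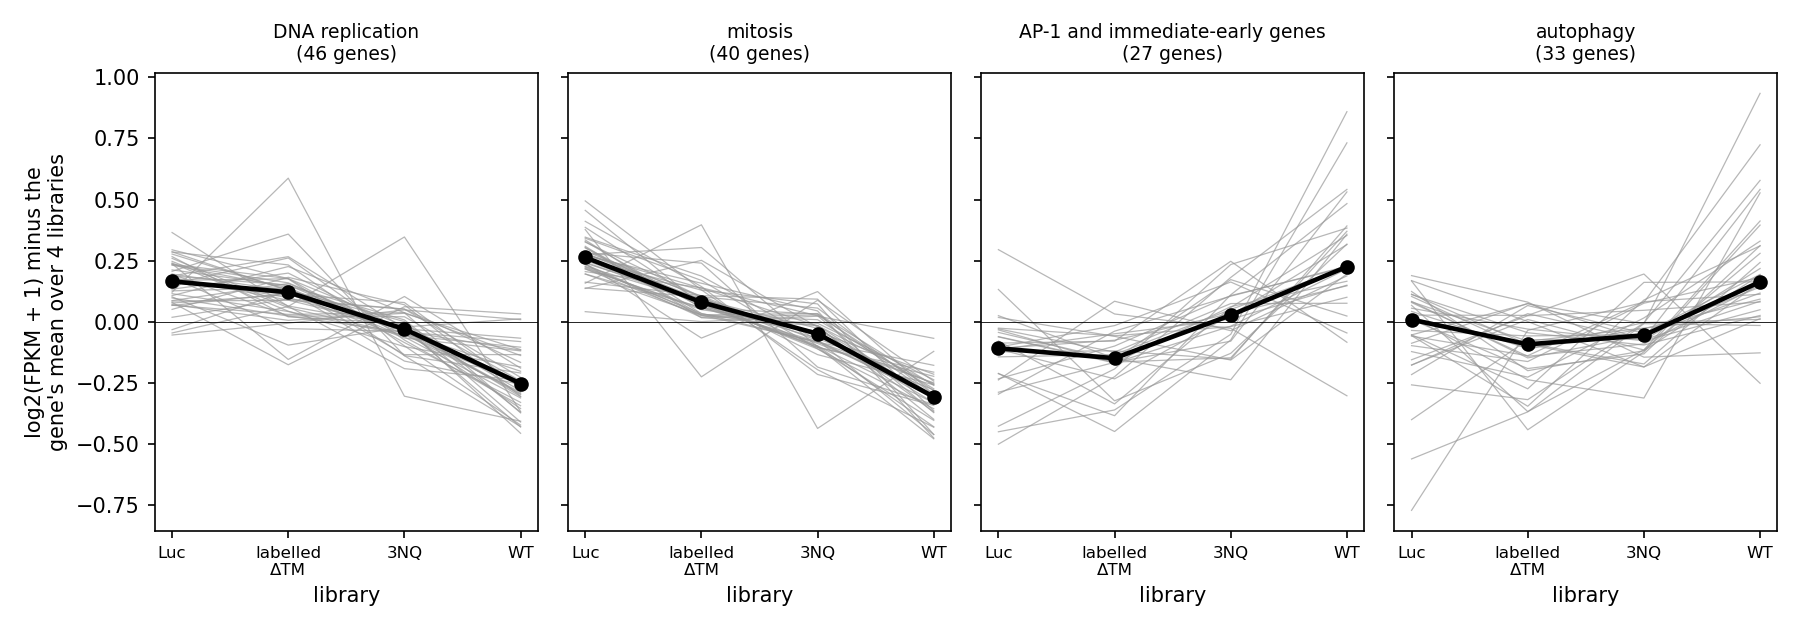
For 4 gene lists, log2(FPKM + 1) of each gene minus its own mean over the 4 libraries is plotted by library (1 grey line a gene, black line and points for the median). The libraries are ordered along the axis by the levels of mitotic genes. DNA replication and mitotic genes are lowest in WT (42 of 46 and 39 of 40), and AP-1 and autophagy genes are mostly highest there (23 of 27 and 25 of 33).

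Immediate-early genes and the AP-1 family, which respond within minutes to growth and stress signals, had a median of 0.22, with 23 of 27 above 0, against 55.0% of all genes, and 4 higher in WT, or 14.8% against 2.93%. These were KLF6 (33.3, 83.9, 44.2 and 35.5, 0.91), KLF2 (0.741, 2.35, 0.915 and 0.477, 0.81), NR4A2 (3.05 in WT against 1.30 to 1.65 in the others, 0.61) and the ERK phosphatase DUSP6 (2.49, 3.40, 1.91 and 2.09, 0.60), which lost its call on rescaling to a common upper quartile or by median ratios. KLF2, at 0.915 in 3NQ, passed the filter only through WT, where it is high, so that the 14.8% is not read against all genes. In 23 of the 27 WT was the highest library, against 34.3% of all genes. JUN had 14.95, 31.8, 24.6 and 18.3 (0.36), and here the level of 3NQ was above the midpoint of Luc and WT. CYR61 had the lowest ratio of the list (203, 203, 256 and 204, −0.33). Of the JNK and p38 kinases and their scaffolds, only MAPK8IP2 was called, and it was higher (3.01, 6.82, 3.75 and 3.12, 0.72). It was 4.35% of the 23 genes, against 2.93% of all genes, and the list median was 0.055. The AP-1 motif TGANTCA was found on either strand in 7.52% of 226 promoters of genes higher in WT, in 7.41% of 108 promoters of genes lower in WT and in 4.55% of all.

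Targets and regulators of NF-kappa B had a median of 0.20 over 25 genes, with 2 higher in WT, or 8% against 2.93% of all genes. WT was the highest library in 17, against 34.3% of all genes. RELA, the p65 subunit, had 160, 154, 78.9 and 213 (0.96), so that this call came from a low level in 3NQ. The chemokine CCL22 had 10.4, 16.4, 9.03 and 11.1 (0.79). TNFAIP3, which ends the signal (33.4, 57.8, 38.3 and 34.0), and RELB (6.67, 14.6, 9.37 and 6.98) were both at 0.58, just under the threshold, and there WT was the high library. Interferon response and antigen presentation genes had a median of 0.0045 over 37 genes, and IFI27 was the only one called (3.63, 3.29, 7.21 and 9.51, −0.94). The share lower in WT was 2.70%, against 1.55% of all genes.

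Genes that carry out or restrain apoptosis differed little. The median was 0.081 over 30 pro-apoptotic and 0.029 over 10 anti-apoptotic genes. TNFSF10, the death ligand TRAIL, was the only called gene of both lists and was lower in WT (2.71, 0.883, 2.53 and 2.45, −0.91). It made up 3.33% of the pro-apoptotic genes, where 1.55% of all genes were lower. TNFSF10 passed the filter only through 3NQ, where it is higher than in WT, so that this share is not read against all genes.

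In the insulin and IGF receptor axis, 1 of 29 genes was called, higher in WT, or 3.45% against 2.93% of all genes, and the median was 0.15. IGF2 had 7.12, 5.81, 2.80 and 5.75 (0.84), with 3NQ low. INSR had 1.87, 2.45, 1.33 and 1.36 (0.56), which passed 1.5-fold at a pseudocount of 0.1 and with equal sums of FPKM, and IGF1R had 34.1, 39.1, 33.3 and 33.5 (0.22). In the NRF2 list, 3 of 26 were higher, or 11.5% against 2.93% of all genes. These were the glutathione peroxidase GPX2 (3.11, 3.87, 1.56 and 4.17, 0.93), the aldo-keto reductase AKR1C3 (6.09, 9.74, 5.39 and 8.31, 0.75) and OSGIN1 (3.20, 7.92, 4.76 and 3.62, 0.63). In GPX2, 3NQ was the low library, and in OSGIN1 WT was the high one. Of the 28 glycolysis and hypoxia genes, only NDRG1, a stress-responsive gene, was called (283, 416, 264 and 294, 0.65), or 3.57% higher against 2.93% of all genes.

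For matrix adhesion and epithelial–mesenchymal transition, 2 of 23 genes were higher and 2 lower, or 8.70% each way, against 2.93% and 1.55% of all genes. CD44 and TGFBI each passed the filter only through the library in which they are high, so that these counts are not read against all genes. The integrin ITGB8 (5.71, 6.12, 3.47 and 4.06, 0.67) and the hyaluronan receptor CD44 (0.925, 2.08, 0.949 and 0.816, 0.66) were higher, and TGFBI (1.01, 0.571, 1.498 and 0.9995, −0.67) and THBS1 (24.9, 18.5, 29.4 and 19.6, −0.64), matrix proteins induced by TGF-beta, were lower. Of the 26 epithelial junction and keratin genes, only DSC2, a desmosomal cadherin, was called (17.4, 22.3, 14.2 and 15.2, 0.61), or 3.85% higher against 2.93% of all genes. Among the 9 gastric and intestinal genes CDX2, a factor of intestinal identity, was higher from a low level (1.40, 1.96, 0.832 and 0.953, 0.69), or 11.1%. CDX2 passed the filter only through WT, the library in which it is high, so that this share is not read against all genes. The epithelial keratins KRT8 (8501, 4510, 6362 and 6912, −0.50) and KRT18 (3684, 2115, 2673 and 3610, −0.34) were lowest in WT without being called.

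No gene was called in the lists of cholesterol synthesis, metallothioneins and zinc transport, cytosolic heat shock proteins, the proteasome, respiratory complex I and cytosolic ribosomal proteins. The cytosolic heat shock proteins, whose chaperones parallel those of the ER, had a median of 0.011 over 18 genes, and the proteasome −0.04 over 37. Ribosomal proteins had a median of −0.11, with 67 of 75 below 0, and were the largest group with a small shift in 1 direction. The medians of cholesterol synthesis, metallothioneins and complex I were 0.078, −0.18 and −0.0057.

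**Figure D5:**
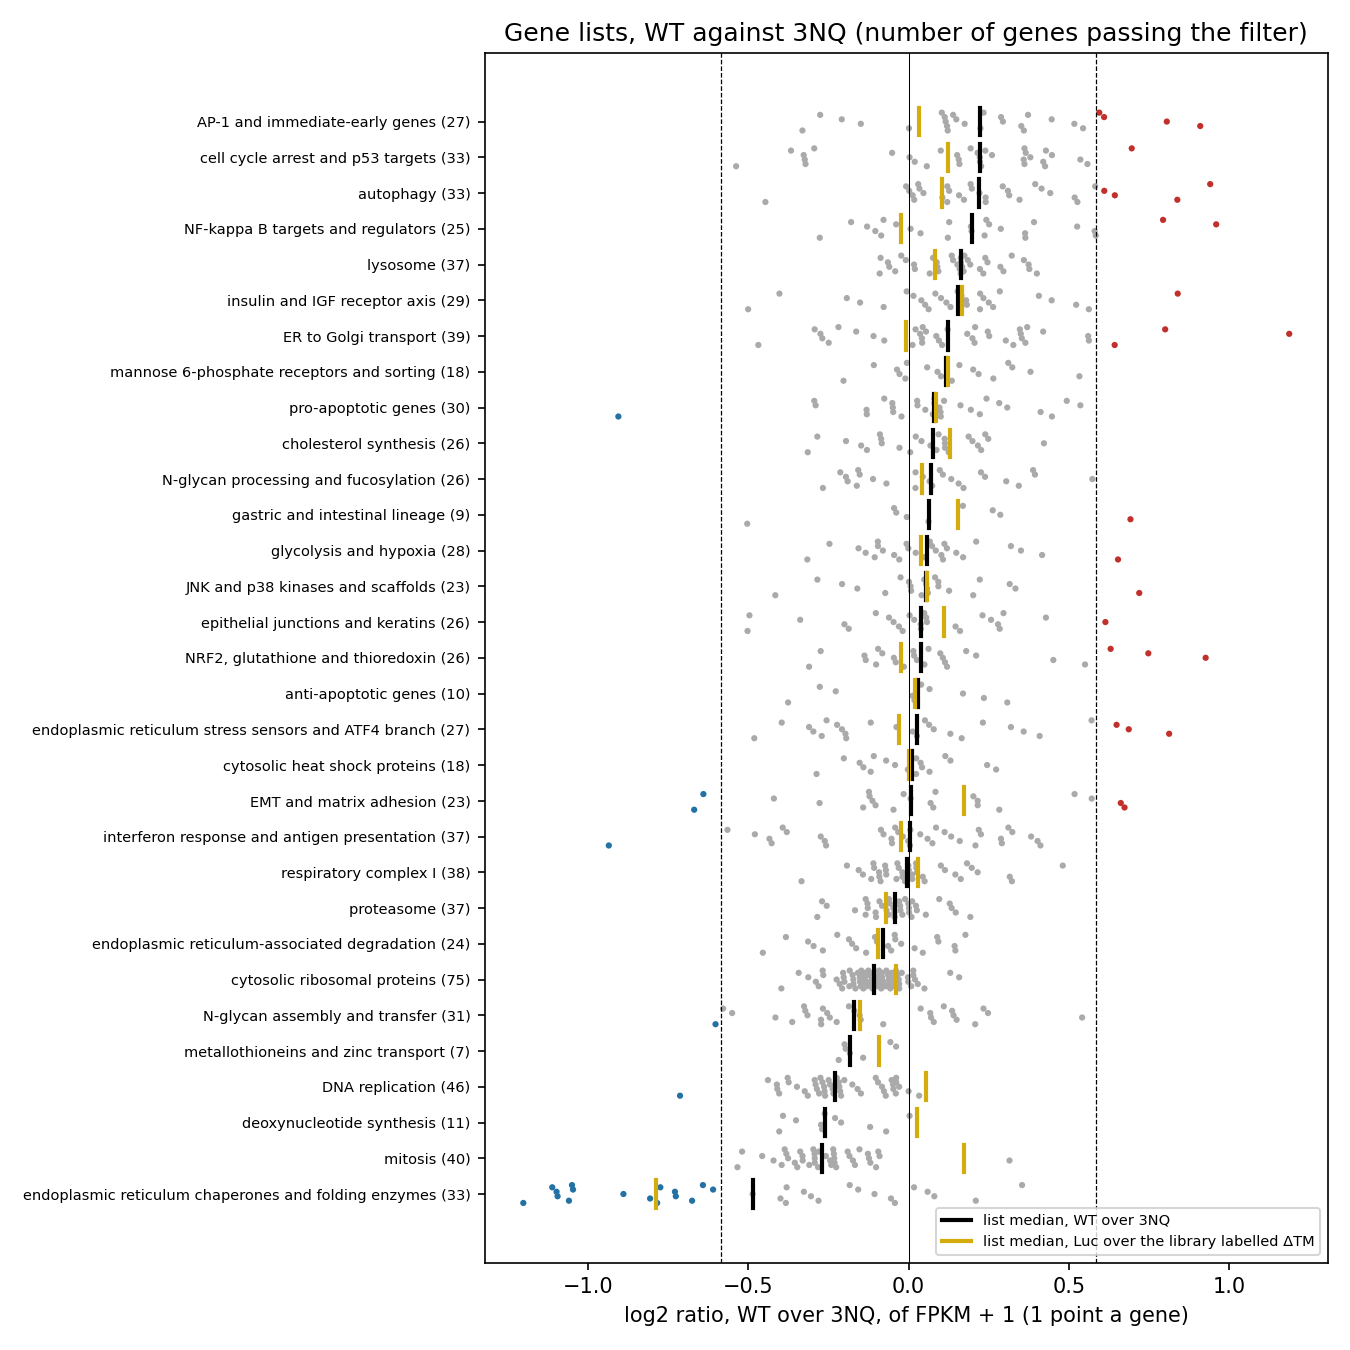
The log2 ratio of WT to 3NQ of each gene is plotted for 31 gene lists (1 point a gene, number of genes passing the filter in brackets), with red and blue points past the dashed 1.5-fold lines, a black bar for the list median and a yellow bar for the median of Luc over the library labelled ΔTM. ER chaperones have the lowest medians of both ratios (−0.49 and −0.79), and for mitosis and DNA replication the bars lie on opposite sides of 0. For DNA replication, the yellow bar (0.056) is near the median of that pair over all genes (0.060).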

How the data were processed

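The authors discarded poor reads, aligned the remainder with TopHat to GRCh37 and estimated the FPKM of Ensembl genes with Cufflinks 2.1.1. Non-coding regions were masked, and the options that correct for fragment bias and for reads mapping to several places were set. The deposited table gives 1 FPKM for each of 23362 genes in each of the 4 libraries, already scaled by the authors for library size and gene length, with no read counts. The low FPKM values gave no steps from which whole reads could be recovered, so that no count model was used, and depth is unknown. The symbols of 166 entries repeat that of another entry, and of such entries the one with the higher mean over the 4 libraries stood for the gene.

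Genes that reached 1 FPKM in WT or 3NQ were kept, log2((WT + 1)/(3NQ + 1)) was taken in Python 3.11.15 (pandas 2.3.3, numpy 2.4.6), and a difference of 1.5-fold was called. The call rule was run on simulated data, with changes well past the threshold in genes well above the filter. That run does not test calls near the threshold or calls of low genes. Exon overlap, transcript length and GC content came from GENCODE v44lift37 on GRCh37 for 11347 of the 11542 genes, and figures were drawn with matplotlib 3.10.9. The genes named are KIAA1324, the 12 highest and 12 lowest ratios at an FPKM of at least 5, up to 6 genes listed at 0 each way, up to 3 genes at each end of each list, the 10 most abundant genes and genes that the study's results name. Further members of a list, such as the ER chaperones, and the genes at the edge of the filter were named after their values were seen. The comparison, the genes named and the 35 lists, of which 4 hold cell type markers, were chosen with earlier results of these data known, and another 3 lists were added after the values were seen. No replicate was available, and Luc against the library labelled ΔTM is a background pair that also holds any difference between those cells. The alternatives tried were other thresholds, pseudocounts, filters and scalings, leaving out genes at 0 or with overlapping exons, and removing the trend with GC content and length. Single values of 2 genes that the rule for named genes takes in are not reported here.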

Additional observations from a re-analysis of the deposited data

How the results depend on the processing

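No paired analysis was possible because each group is 1 library. Counts of genes higher and lower in WT were 58 and 49 at a 2-fold threshold, 555 and 316 with a pseudocount of 0.1, 100 and 67 with a pseudocount of 5, 223 and 104 at an FPKM of at least 5, and 220 and 100 without genes whose exons overlap another gene. The last 2 settings counted fewer genes, 9241 and 7436. Called genes in which WT stood apart were 30, 295 and 58 at the 2-fold threshold and with pseudocounts of 0.1 and 5, and those in which 3NQ stood apart were 18, 145 and 23. Without the library labelled ΔTM, a setting chosen after seeing the data, WT stood apart in 202 and 3NQ in 138, so that the contrast of 151 with 56 narrowed. Chaperone genes lower in WT were 7 at the 2-fold threshold and 10 of 23 without overlapping genes, where the median was −0.38. Rescaling by the median of ratios gave 300 and 198 genes and by the upper quartile 307 and 194, while equal sums of FPKM, also chosen after seeing the data, gave 421 and 147. In each setting more genes were higher than lower in WT. The medians of 34 lists were recomputed 340 times in all and moved by over 0.1 in 8, which belong to the chaperones, the gastric and intestinal list and the histone and squamous lists added later. Of 118 single genes, 42 lost their call with a pseudocount of 5, 4 with the median of ratios (ATG10, ATP6V1D, DUSP6 and NEU1), 2 with equal sums (ALG5 and ERP44), 2 without the trend in GC content and length (DSC2 and ERN1) and 1 with the upper quartile (DUSP6), and none changed direction. Without read counts, the limit that depth sets on low genes, 36.8% of the calls, is unknown.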

Other observations

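The lists and genes described here were chosen after their values were seen, and their ratios support nothing beyond these libraries. Targets of the MiT/TFE factors, which control lysosome biogenesis and the nutrient sensing of mTORC1, had a median log2 ratio of 0.42 over 18 genes, with 8 higher in WT and none lower, against 2.93% higher over all genes. GPNMB, a lysosomal membrane glycoprotein, was at an FPKM of 37.2 in WT and 16.2 in 3NQ, with Luc at 14.9 and the library labelled ΔTM at 17.7, and its log2 ratio was 1.15. With the libraries in the order Luc, WT, 3NQ and labelled ΔTM, FNIP2 had 5.41, 7.66, 4.02 and 3.46 (0.79), its partner FLCN had 12.3, 21.8, 13.7 and 10.7 (0.63), RRAGC, a GTPase that recruits mTORC1 to the lysosome, had 22.5, 32.9, 20.8 and 18.8 (0.63), and the sialidase NEU1 had 26.6, 38.5, 24.8 and 24.8 (0.61). WT was the highest library in 15 of the 18. The list shares SQSTM1 and WIPI1 with the autophagy genes described above, and TFEB itself, one of the factors, was at 6.01 in WT and 6.46 in 3NQ.

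Of 71 histone genes, 25 passed the filter, of which 8 were higher and 1 lower in WT, where 2.93% and 1.55% of all genes were called. Some passed through the library in which they are high, such as HIST1H4B (1.05 in WT and listed at 0 in 3NQ), and had to differ, so that these counts are not read against all genes. HIST1H2AC had 15.01, 36.8, 17.3 and 20.6 (1.04), HIST1H2BD had 6.28, 15.3, 8.73 and 6.84 (0.74) and HIST1H2BC had 3.25, 8.11, 4.22 and 4.15 (0.80), with WT the highest library in each. HIST1H3J was lower (0.295, 0.304, 1.66 and 0.728, −1.03). The median was 0.35, and it was 0.071 without the filter, 0.69 at an FPKM of at least 5 and 0.16 with a pseudocount of 5. Members of this family have near-identical copies and most lack a poly(A) tail, so that their FPKM in poly(A) libraries is uncertain.

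Of the squamous keratins and cornified envelope genes, 14 passed the filter, 7 of which reached an FPKM of 5 in WT or 3NQ. Of the 14, 7 were higher in WT, where 2.93% of all genes were called. KRT5 passed only through WT, the library in which it is high, so that these counts are not read against all genes. SPRR1B had 4.90, 8.81, 3.26 and 4.21 (1.20), KRT5 had 3.57, 2.28, 0.615 and 0.955 (1.02), KRT6A had 4.998, 6.61, 3.23 and 3.24 (0.85) and LYPD3 had 121, 161, 101 and 99.1 (0.67). In 6 of the 14 both Luc and WT were above the other pair. The median of 0.36 fell to 0.060 without the filter and to 0.13 with a pseudocount of 5, and was 0.67 at an FPKM of at least 5.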
